A study of Saccharomyces cerevisiae with 18 samples.

Results

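The peroxisome and fatty acid oxidation genes described here are the 37 *Saccharomyces cerevisiae* genes on the array whose standard name is that of a peroxin (*PEX*) or that encode the peroxisomal enzymes and transporters of fatty acid beta-oxidation or the regulators *OAF1* and *PIP2*. They were chosen by name and function, without a rule on their values but with earlier results of these data known. They make up 37 of the 5469 *S. cerevisiae* genes counted by probe sets with a single gene symbol. Of the 37, 25 are *PEX* genes, called biogenesis genes here, 10 encode oxidation enzymes and transporters, and 2 encode regulators. Each has 1 probe set, the group of array features that reads 1 transcript.

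In yeast the breakdown of fatty acids is confined to the peroxisome, a small organelle bounded by a single membrane. Acyl-CoA oxidase, a multifunctional hydratase and dehydrogenase and a thiolase shorten the acyl chain there in turn, auxiliary enzymes deal with double bonds, and transporters bring in acyl-CoA and ATP. The peroxins build the organelle: receptors and a docking complex import matrix proteins, a ubiquitin and ATPase machinery recycles the receptors, *PEX3* and *PEX19* insert membrane proteins, and the *PEX11* family together with a set of reticulon-related endoplasmic reticulum proteins controls size and number. Oaf1 and Pip2 are the transcription factors through which oleate induces many of these genes, and growth on glucose represses them.

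The study asked how transcription differs between colonies of different morphology and whether such differences are particular to growth on a surface. RNA was measured on 18 Affymetrix Yeast Genome 2.0 arrays, in 6 groups of 3. Strains of the Sigma1278b background were grown on YPS, a medium of yeast extract, peptone and sucrose, with a stated growth of 5 days at 30°C. KV63 and KV473 are labelled as *flo11* deletion mutants and KV68 and KV2668 as wild type. *FLO11* encodes the cell-surface adhesin needed for wrinkled colonies. All 4 strains were grown as colonies on a solid surface. Liquid cultures were measured for KV2668 and KV473 alone, and for these the deposited growth text repeats that of the colonies. No other allele, treatment or age is given for any group, so each label rests on 1 strain in liquid medium and 2 strains on solid medium.

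The level of *FLO11* went against the labels. On the 9 arrays of KV63 and KV473, labelled *flo11*, its log2 level lay between 12.76 and 13.31, and on the 9 arrays of KV68 and KV2668, labelled wild type, between 4.65 and 5.43. Each direction below is therefore given by strain name, and the genotype of a strain is only its label. KV2668 also differed from the other strains in mating-type markers. Its mean over 7 a-cell markers was 9.52 to 10.39 and over 4 alpha-cell markers 6.24 to 7.25, against 6.11 to 7.92 and 11.47 to 12.69 in KV473. Strain, label and mating-type markers cannot be told apart in the comparisons of KV473 with KV2668. Replicate arrays correlated at 0.993 or more except KV68 solid replicate 3, which correlated at 0.909 and 0.917 with the other two of its group. Results that use KV68 are given with and without that array. Nothing in the labels says that replicates are separate cultures, so p-values measure the spread between these arrays, which may be technical.

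All 37 genes were well above background. Their log2 levels ran from 7.61 to 12.96, while the background of an array, the 95th percentile of the probe sets for *Schizosaccharomyces pombe* genes, ran from 4.34 to 4.56. The median SD of a gene within a group was 0.07 outside the KV68 colonies and 0.30 within them. Differences are on the log2 scale, in which 1 is 2-fold, and a change was called where the adjusted p was under 0.05 and the absolute difference over 1. Counts on the adjusted p alone are also given, since that rule takes in many changes well under 2-fold. In bulk RNA, fewer cells expressing a gene and less RNA per cell cannot be told apart.

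**Figure D1:**
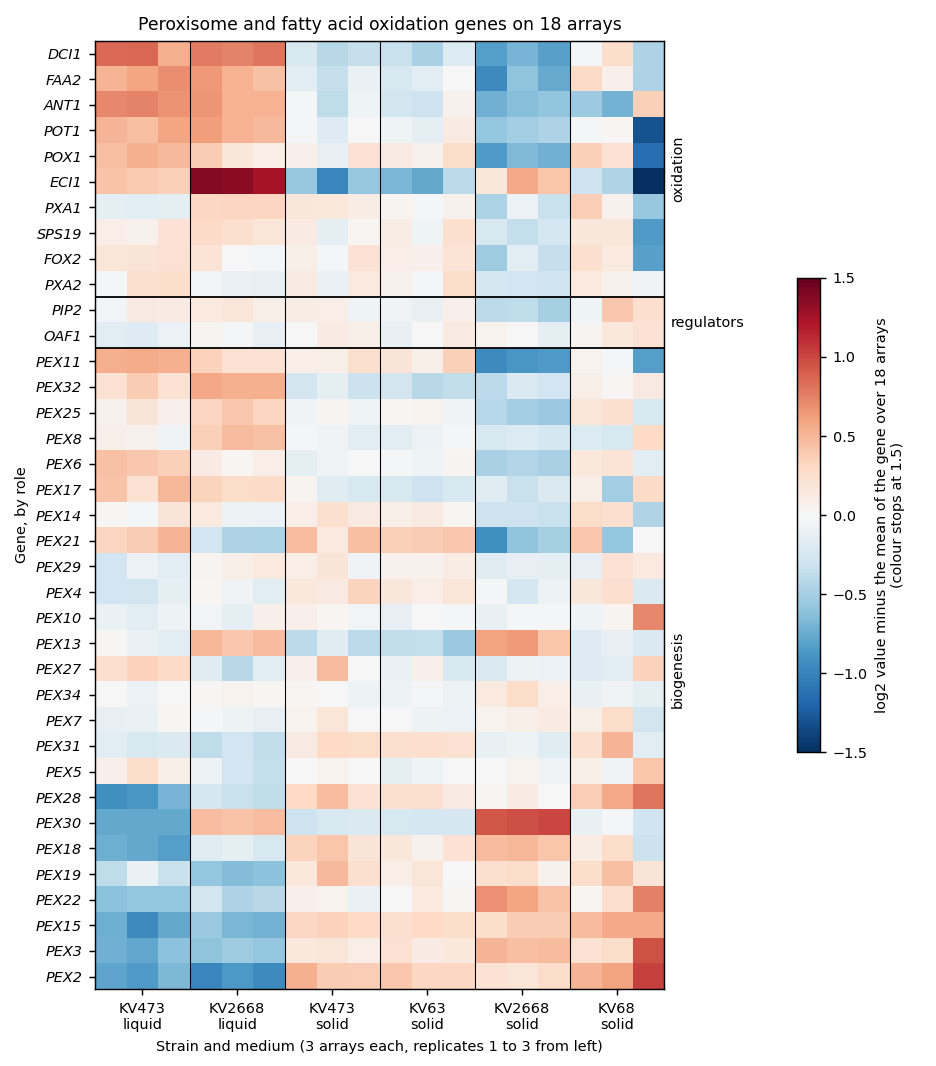
Log2 level of each of the 37 genes on each of the 18 arrays, drawn as the deviation from that gene's mean over the arrays, with genes in rows by role and arrays in columns by group. The oxidation genes are on average above their own means on the 6 liquid arrays and lowest in the KV2668 colonies and on KV68 solid replicate 3, while the biogenesis genes go both ways.

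Genes of the oxidation pathway were lower in colonies than in liquid culture, all 10 in KV2668 and 6 by the adjusted p in KV473. In KV2668, labelled wild type, all 10 had lower levels on every solid array than on any liquid array, as 47.3% of all probe sets did, and all 10 passed the adjusted p, with differences from -1.55 to -0.20 and a median of -0.95. In KV473, labelled *flo11*, 6 of the 10 passed in the same direction and 1, *PXA1*, in the other, with differences from -1.10 to 0.30 and a median of -0.51. The median over all 5424 probe sets tested was -0.10 in KV2668 and -0.16 in KV473. The adjusted p alone called 45.9% of all probe sets lower in KV2668 and 49.2% in KV473. Called by both thresholds were 4 of 10 oxidation genes in KV2668, where 6.95% of all probe sets were called lower, and 2 of 10 in KV473, where 6.67% were.

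Among the auxiliary enzymes for unsaturated fatty acids, *DCI1* differed strongly in both strains and *SPS19* little. *DCI1*, a paralogue of the enoyl-CoA isomerase *ECI1*, stood at 10.19, 10.16 and 10.21 in KV2668 liquid cultures and at 8.58, 8.72 and 8.61 in KV2668 colonies. The difference of -1.55 (SE 0.08, adjusted p = 8.74e-10, limma) is a 2.94-fold lower level in colonies. In KV473 *DCI1* went from 10.26, 10.28 and 9.96 in liquid to 9.17, 9.0 and 9.07 on solid medium, a difference of -1.09 (SE 0.08, adjusted p = 2.93e-08). It was the single oxidation gene called lower by both thresholds in both strains. Its liquid and solid arrays did not overlap in either, as for 82.2% of all probe sets in KV2668 and 82.5% in KV473. *ECI1* itself, which shifts double bonds into the position that the pathway can use, stood at 11.64, 11.61 and 11.57 in KV473 liquid cultures and at 10.65, 10.23 and 10.65 in KV473 colonies. Its difference was -1.10 (SE 0.11, adjusted p = 6.6e-07) in KV473, or -0.96 without KV473 solid replicate 2, and -0.94 in KV2668, short of the threshold of 1. The reductase *SPS19*, the other auxiliary enzyme, differed by -0.52 in KV2668, where it passed the adjusted p, and by -0.13 in KV473, where it did not.

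Genes for activation of the substrates and transport of ATP were lower in colonies of both strains, while the importer gene *PXA1* differed between them. *FAA2*, the peroxisomal acyl-CoA synthetase for medium-chain fatty acids, stood at 12.05, 11.92 and 11.84 in KV2668 liquid cultures and at 10.44, 10.80 and 10.64 in KV2668 colonies, a difference of -1.31 (SE 0.10, adjusted p = 2.1e-08). *ANT1*, which carries ATP into the peroxisome for that activation, stood at 11.31, 11.16 and 11.17 in liquid and at 9.92, 10.01 and 10.06 in colonies of KV2668, a difference of -1.22 (SE 0.09, adjusted p = 1.46e-08). Neither gene's liquid and solid arrays overlapped in KV2668, as for 82.2% of all probe sets. In KV473 both differences were smaller but passed the adjusted p, at -0.80 for *FAA2* and -0.87 for *ANT1*. *PXA1* and *PXA2* encode the partner subunits of the importer of long-chain acyl-CoA. *PXA1* fell by 0.62 in colonies of KV2668 (adjusted p = 6.5e-06) and was 0.30 higher in those of KV473 (adjusted p = 0.00316), from 10.68, 10.66 and 10.69 in liquid to 11.00, 10.98 and 10.94. *PXA2* differed by -0.20 in KV2668 and by -0.10, short of the threshold, in KV473.

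Genes of the core enzymes of the cycle differed in how far they went down. The thiolase *POT1*, which releases acetyl-CoA, stood at 12.96, 12.85 and 12.82 in KV2668 liquid cultures and at 11.75, 11.81 and 11.86 in KV2668 colonies, a difference of -1.07 (SE 0.07, adjusted p = 6.35e-09). The acyl-CoA oxidase *POX1*, which begins each cycle, stood at 12.08, 11.86 and 11.79 in liquid and at 10.85, 11.03 and 10.97 in colonies, a difference of -0.96 (adjusted p = 3.66e-07). *FOX2*, the multifunctional enzyme between them, differed least of the 3, by -0.40. In KV473 *POT1* differed by -0.59 (adjusted p = 2.48e-06) and *POX1* by -0.42 (adjusted p = 0.000774), while *FOX2* at -0.11 did not pass. The signs of the 3 small differences in KV473 that did not pass, *FOX2*, *SPS19* and *PXA2*, depend on scaling: 9 of 10 oxidation genes lay below 0 as deposited and with arrays centred on their medians, and 6 of 10 with each chromosome centred.

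**Figure D2:**
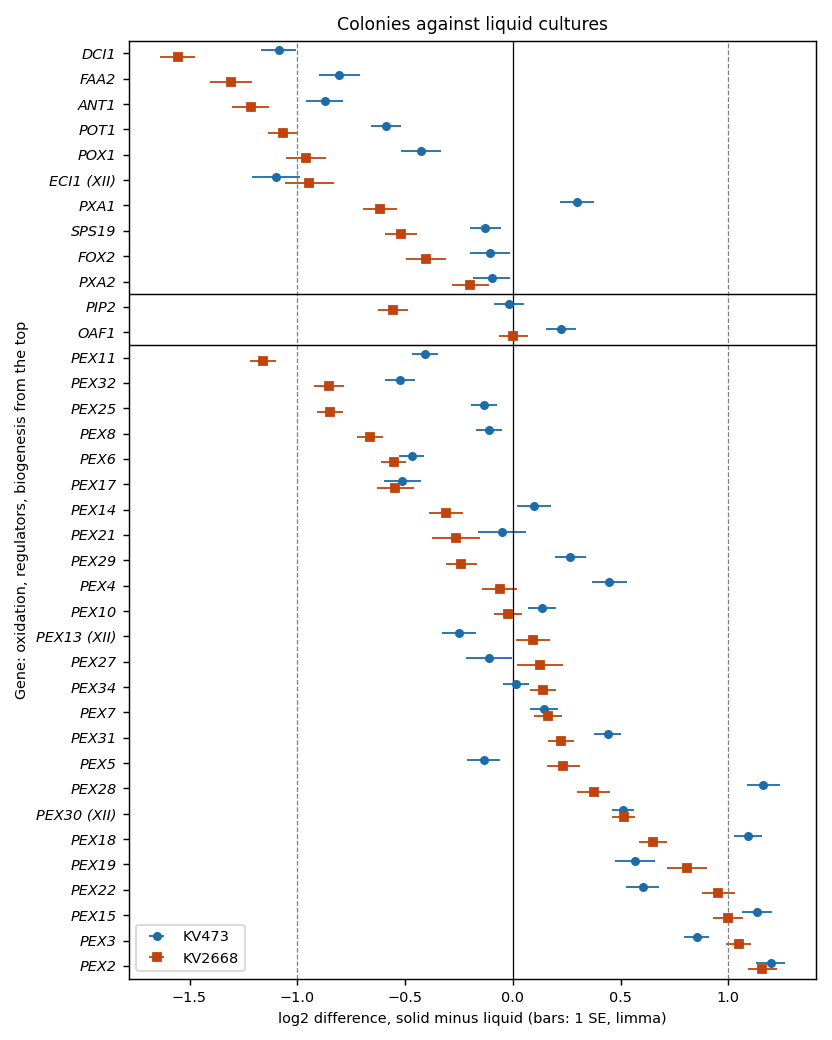
Log2 difference between colonies and liquid cultures for each of the 37 genes, KV473 as circles and KV2668 as squares, with bars of 1 SE from limma and dashed lines at the threshold of 1. All oxidation genes in KV2668 lie left of 0, and *PXA1* is the one oxidation gene with a difference of 0.30 to the right of 0 in KV473.

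Of the regulators, *PIP2* was lower in colonies of KV2668 and *OAF1* changed little. *PIP2*, induced by oleate and a partner of Oaf1, stood at 8.76, 8.79 and 8.70 in KV2668 liquid cultures and at 8.23, 8.23 and 8.12 in KV2668 colonies. It fell by 0.56 (adjusted p = 4.61e-06). In KV473 its values of 8.57, 8.74 and 8.74 in liquid and 8.73, 8.72 and 8.55 on solid medium overlapped. *OAF1*, which binds fatty acids and is not itself induced by oleate, was 0.22 higher in colonies of KV473 by the adjusted p and did not pass in KV2668, where its levels were 9.40 to 9.57 in liquid and 9.38 to 9.58 on solid medium.

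The biogenesis genes did not go one way. By both thresholds 4 of 25 were higher and 0 lower in colonies of KV473, where 11.2% of all probe sets were called higher and 6.67% lower. In KV2668 2 were higher and 1 lower, against 10.7% and 6.95% of all. The 2 became 4 without KV2668 liquid replicate 1 and 3 without either KV2668 solid replicate 1 or 3. By the adjusted p alone 11 were higher and 5 lower in KV473, and 12 were higher and 9 lower in KV2668, where that rule called 32% of all probe sets higher and 49.2% lower in KV473 and 34.4% and 45.9% in KV2668. The median was 0.13 in both strains, with ranges of -0.52 to 1.20 and -1.16 to 1.16.

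Some genes of the receptor-recycling machinery were among those that rose most, while *PEX6* fell. *PEX2* encodes a RING-finger subunit of the ubiquitin ligase that marks import receptors for recycling. Its level went from 9.31, 9.26 and 9.43 in liquid to 10.64, 10.49 and 10.47 in colonies of KV473 and from 9.13, 9.25 and 9.15 to 10.32, 10.29 and 10.38 in KV2668. The differences of 1.20 (SE 0.07, adjusted p = 1.73e-09) and 1.16 (SE 0.07, adjusted p = 2.34e-09) made it the single one of the 37 genes called higher in both strains. *PEX15* is the membrane anchor of the machinery that pulls receptors out of the membrane. It rose by 1.13 in KV473 (adjusted p = 3.88e-09), from 9.61 to 9.83 in liquid to 10.86 to 10.90 in colonies, and by 1.00 in KV2668 (adjusted p = 1.35e-08), a difference that rounds to the threshold but lies just under it. *PEX22*, the membrane anchor of the ubiquitin-conjugating enzyme Pex4, rose by 0.60 and 0.95, short of the threshold on size. *PEX6*, an ATPase of the same machinery, went the other way by the adjusted p, at -0.47 and -0.55. The 7 genes counted under this step had a median of 0.45 in KV473, with a range of -0.47 to 1.20. In KV2668 the median was -0.02 and the range -0.66 to 1.16. The 7 include *PEX8*, which gave the low end in KV2668 and is described below as acting in import. These medians are therefore not those of the recycling genes alone.

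Both genes for insertion of membrane proteins were higher in colonies. *PEX3*, the docking factor in the membrane, went from 9.81, 9.89 and 9.83 in KV2668 liquid cultures to 10.92, 10.86 and 10.89 in colonies, a difference of 1.05 (SE 0.06, adjusted p = 1.53e-09), and rose by 0.85 in KV473. *PEX19*, the receptor that carries membrane proteins to it, rose by 0.81 in KV2668 and 0.57 in KV473. Liquid and solid arrays did not overlap for either gene in either strain, as for 82.2% of all probe sets in KV2668 and 82.5% in KV473.

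The co-receptors for thiolase import, the paralogues *PEX18* and *PEX21*, differed from each other. *PEX18* rose by 1.09 in KV473 (SE 0.06, adjusted p = 2.94e-09), from 8.65, 8.62 and 8.56 to 9.72, 9.80 and 9.58, and by 0.65 in KV2668. For *PEX21* the KV473 values overlapped between media, at 10.11, 10.17 and 10.30 in liquid and 10.25, 9.93 and 10.24 in colonies, and the difference in KV2668 was -0.26. The docking-complex gene *PEX17* fell in both strains, by 0.51 and 0.54. The step of receptors and docking as a whole, 7 genes, had medians of -0.05 and 0.09.

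Within the control of size and number, genes went in opposite directions. *PEX11*, the membrane protein that promotes proliferation of peroxisomes on oleate, went from 12.46, 12.35 and 12.34 in KV2668 liquid cultures to 11.16, 11.24 and 11.26 in colonies, a difference of -1.16 (SE 0.06, adjusted p = 8.79e-10), and fell by 0.41 in KV473. It was the 1 biogenesis gene called lower by both thresholds. Its relative *PEX25* fell by 0.85 in KV2668, from 10.97, 11.05 and 10.98 to 10.22, 10.15 and 10.09, while in KV473 its difference did not pass. Among the reticulon-related genes, *PEX28* rose by 1.16 in KV473 (SE 0.08, adjusted p = 9.13e-09), from 8.39, 8.43 and 8.61 to 9.61, 9.77 and 9.52, and by 0.38 in KV2668. *PEX32*, of the same group, fell by 0.52 in KV473 and 0.85 in KV2668.

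Signs were shared between the strains to about the extent seen over all probe sets. The medium difference had the same sign in both strains for 29 of the 37 genes, 78.4%, against 80.8% of all probe sets tested. By role this was 9 of 10 oxidation genes and 18 of 25 biogenesis genes. By the adjusted p alone 6 oxidation genes were lower and 0 higher in both strains, and 9 biogenesis genes were higher and 4 lower in both, where 37.1% of all probe sets were lower and 24.6% higher in both.

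**Figure D3:**
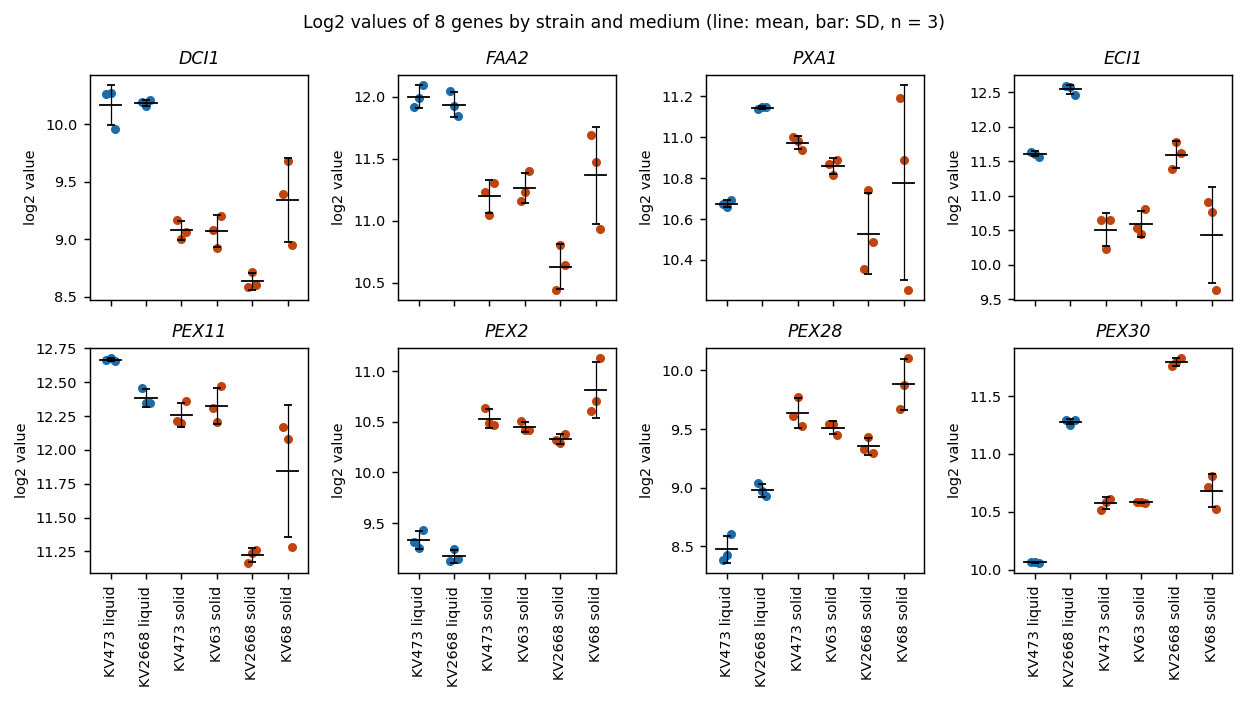
Log2 level on every array for 8 of the genes, by strain and medium, with each point 1 array, the line the group mean and the bar 1 SD (n = 3), each panel on its own scale. In KV2668 colonies *DCI1* lies at 8.58 to 8.72 and *PEX11* at 11.16 to 11.26, below both liquid groups, while *PEX2* lies at 10.29 to 10.38, above them.

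Taking each gene's deviation from its own mean over the 18 arrays and averaging within a role gave a value for each array. The oxidation mean was 0.36 to 0.39 in KV473 liquid cultures and 0.40 to 0.52 in KV2668 liquid cultures. It was -0.26 to -0.03 in KV473 colonies, -0.18 to 0.06 in KV63 colonies and -0.53 to -0.34 in KV2668 colonies. All liquid arrays lay above all solid arrays, and the KV2668 colonies lay below those of KV473 and KV63. The biogenesis mean stayed within -0.17 to 0.14 over all groups, lower on the liquid arrays, at -0.17 to -0.05, than on the solid arrays, at -0.02 to 0.14. The oxidation mean less the biogenesis mean was 0.50 to 0.57 on the 6 liquid arrays and -0.82 to 0.04 on the 12 solid arrays.

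**Figure D4:**
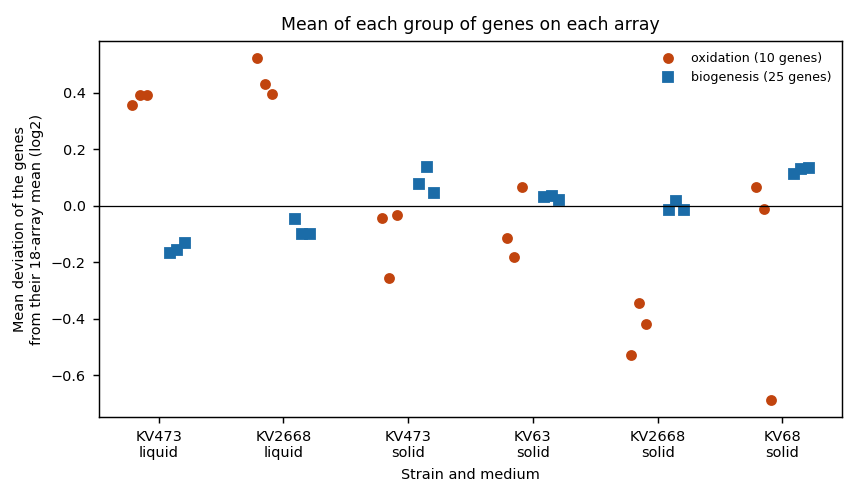
Mean deviation of the 10 oxidation genes and of the 25 biogenesis genes on each array, on the log2 scale, with each point 1 array and arrays placed by group. Oxidation means lie at 0.36 to 0.52 on the liquid arrays, at -0.53 to -0.34 in KV2668 colonies and at -0.69 on KV68 solid replicate 3, while biogenesis means stay between -0.17 and 0.14.

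For most oxidation genes the difference between colonies and liquid was more negative in KV2668 than in KV473. The test of that difference, the KV2668 medium difference less that of KV473, was negative for 9 of 10 oxidation genes, against 52% of all probe sets, with a median of -0.43 against -0.02 over all. On the adjusted p 7 of 10 passed, all negative, where 27% of all probe sets were lower by that rule. By both thresholds 0 of the 37 genes passed in either direction, against 7.15% of all. *PXA1* had the largest value, -0.92 (SE 0.11, adjusted p = 2.15e-05), its medium differences having opposite signs. The others were *POX1* at -0.53 (adjusted p = 0.00396), *FAA2* at -0.50, *POT1* at -0.48, *DCI1* at -0.47, *SPS19* at -0.39 and *ANT1* at -0.34 (adjusted p = 0.0292). *ECI1*, at 0.16, was the exception in sign and did not pass. *PIP2* passed at -0.54 (SE 0.10, adjusted p = 0.000475).

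Among the biogenesis genes 9 of 25 passed the same test with a negative and 3 with a positive value, by the adjusted p alone, where 27% and 24.8% of all did. *PEX28* at -0.79 (SE 0.11, adjusted p = 5.75e-05) belonged to a rise that was smaller in KV2668. *PEX11* at -0.75 (SE 0.09, adjusted p = 1.29e-05) and *PEX25* at -0.71 (SE 0.09, adjusted p = 1.98e-05), of the same membrane-protein family, fell further in KV2668. *PEX27*, also of that family, did not. Its mean went from 8.59 in liquid to 8.48 in colonies of KV473 and from 8.04 to 8.17 in KV2668, and the test did not pass. *PEX8*, which acts on the inner face of the membrane in import, gave -0.55 (SE 0.09, adjusted p = 0.000157): its levels were 10.30, 10.28 and 10.17 in liquid and 10.19, 10.17 and 10.06 in colonies of KV473, and 10.57, 10.69 and 10.66 and 9.97, 10.01 and 9.95 in those of KV2668. The 3 positive values were those of *PEX13* at 0.34, *PEX22* at 0.35 and *PEX5*, the main import receptor, at 0.37.

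Compared directly on solid medium, KV2668, labelled wild type, had lower oxidation genes than KV473, labelled *flo11*, with 1 exception. By the adjusted p alone 9 of 10 were lower and 1 higher, against 30.2% and 29.9% of all probe sets, and the median was -0.45 against -0.01 over all. By both thresholds 0 were lower and 1 higher, where 1.79% of all were called lower and 4.35% higher. *POX1* differed most among the lower genes, from 11.77, 11.57 and 11.92 in KV473 to 10.85, 11.03 and 10.97 in KV2668, a difference of -0.80 (SE 0.09, adjusted p = 6.5e-06). *FAA2* followed at -0.57 and *ANT1* at -0.48, and *SPS19* was least at -0.29. *PIP2* was lower as well, at -0.47 (adjusted p = 5.85e-05). The KV2668 colonies had the lowest mean of the 6 groups for 9 of 10 oxidation genes, against 26% of all probe sets.

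In liquid medium the same strains did not show that shift. The oxidation median was -0.02, with 5 of 10 below 0, and 0 genes passed both thresholds, where 8.28% of all probe sets were called. The adjusted p alone called 2 lower, *POX1* at -0.27 (adjusted p = 0.0252) and *PXA2* at -0.24, and 2 higher, *ECI1* at 0.93 and *PXA1* at 0.47 (SE 0.08, adjusted p = 0.000184), where 24.3% and 28.6% of all were. The test of the difference between media is the same as that of the difference between strains given above, with 7 of 10 lower by the adjusted p.

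The exception in sign, *ECI1*, lies on chromosome XII, as do *PEX13* and *PEX30*, and the probe sets of that chromosome were higher in KV2668 as a whole. Their median difference from KV473 was 0.81 on solid medium and 0.87 in liquid, against -0.04 and -0.00 for the other chromosomes. *ECI1* stood at 11.38, 11.79 and 11.63 in KV2668 colonies and at 10.65, 10.23 and 10.65 in KV473 colonies, a difference of 1.09 (SE 0.11, adjusted p = 2.19e-06). It fell short of the threshold on size without KV473 solid replicate 2, at 0.95, and without KV2668 solid replicate 2, at 0.997. *PEX30*, a reticulon-related protein at sites where peroxisomes meet the endoplasmic reticulum, was higher by 1.22 on both media (SE 0.05, adjusted p = 1.1e-09 on solid medium and 7.83e-10 in liquid), from 10.51, 10.59 and 10.61 to 11.76, 11.79 and 11.83 in colonies. *PEX13*, of the docking complex, was higher by 0.88 on solid medium and 0.54 in liquid. With each chromosome centred, *ECI1* stood at 0.18 and *PEX30* at 0.31 on solid medium, and neither passed both thresholds. The share of higher among all called probe sets went from 70.9% to 53% on solid medium and from 54.3% to 35.9% in liquid with that centring. The other 9 oxidation genes, those given above as lower on solid medium by the adjusted p alone, had a median of -0.45 and a range of -0.80 to -0.29.

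Among the biogenesis genes the strains differed on solid medium in both directions. By both thresholds 1 of 25 was higher, *PEX30*, and 2 were lower, where 4.35% and 1.79% of all probe sets were. By the adjusted p alone 5 were higher and 12 lower, where 29.9% and 30.2% of all were, with a median of -0.12. *PEX11* stood at 12.21, 12.20 and 12.36 in KV473 colonies and at 11.16, 11.24 and 11.26 in KV2668 colonies, a difference of -1.03 (SE 0.06, adjusted p = 1.38e-08). *PEX21* stood at 10.25, 9.93 and 10.24 and at 8.87, 9.18 and 9.29, also a difference of -1.03 (SE 0.11, adjusted p = 3.57e-06). Neither gene's arrays overlapped between the strains, as for 62.1% of all probe sets. Both sit close to the threshold on size: *PEX11* was at -0.98 without KV473 solid replicate 3, and *PEX21* at -0.97 without KV473 solid replicate 1, -0.98 without replicate 3 and -0.91 without KV2668 solid replicate 1. In liquid *PEX30* was the 1 gene called, where 4.5% of all probe sets were called higher, and *PEX21* was lower by 0.82 in KV2668 by the adjusted p (2.63e-05). *PEX11* differed there by -0.28.

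**Figure D5:**
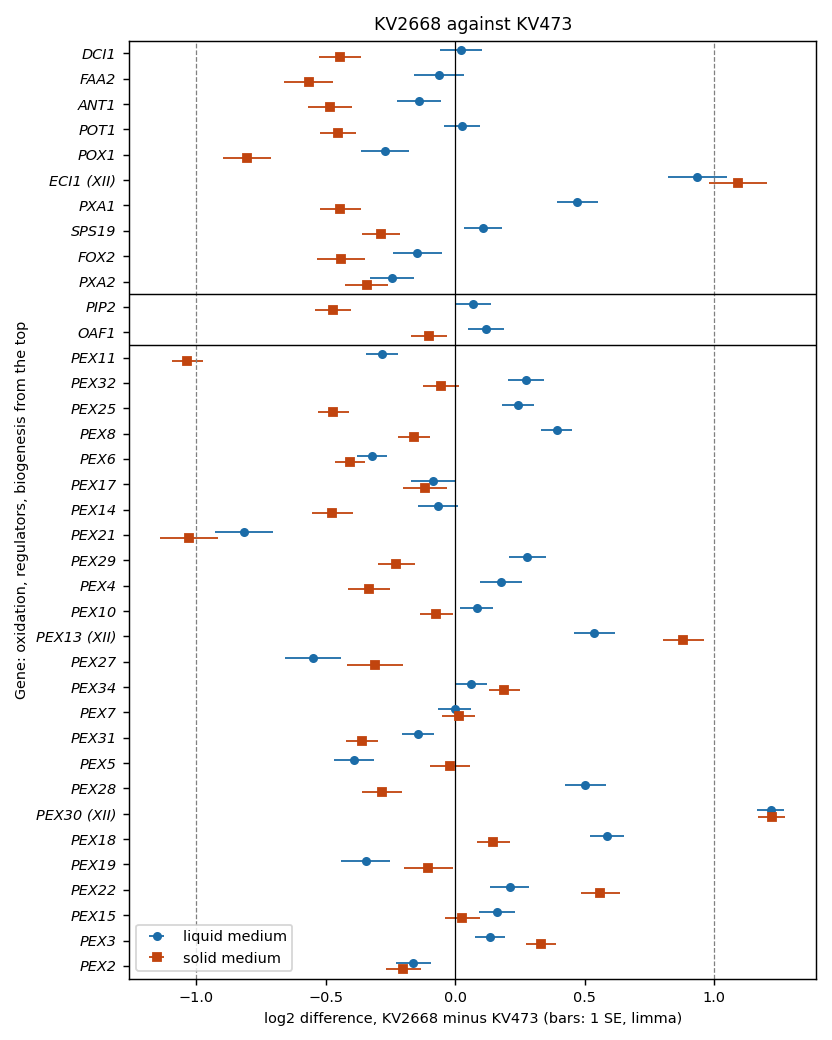
Log2 difference between KV2668 and KV473 for each of the 37 genes on solid and in liquid medium, with bars of 1 SE from limma, dashed lines at the threshold of 1 and the 3 chromosome XII genes marked. On solid medium 9 of 10 oxidation genes lie left of 0, with *POX1* at -0.80, and *PEX30* lies at 1.22 on both media.

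The second pair of strains did not show an oxidation shift of the same size. Between colonies of KV68, labelled wild type, and KV63, labelled *flo11*, 0 of the 37 genes passed both thresholds, where 0.442% of all probe sets did. The oxidation median was -0.14, with a range of -0.41 to 0.27 and 8 of 10 below 0. By the adjusted p alone 0 of 10 passed, where 10.6% of all did. The spread within the KV68 colonies was larger than in the other groups, so a small shift could be missed. Of the biogenesis genes 4 of 25 were higher and 0 lower by that rule, against 5.62% and 4.98% of all: *PEX32* by 0.43 (SE 0.07, adjusted p = 0.00329), *PEX28* and *PEX2* by 0.37 and *PEX15* by 0.27. With the KV63 and KV68 colonies fitted alone, 0 of the 37 genes passed the adjusted p, with or without the replicate number as a block, as did 2 and 1 of all probe sets without and with it.

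These values depend on KV68 solid replicate 3. On that array 9 of 10 oxidation genes were below the mean of the other 2 KV68 arrays, with a median gap of -0.90, while the biogenesis genes had a median gap of 0.04 and all probe sets 0.05. *POX1* stood at 12.04 and 11.91 on replicates 1 and 2 and at 10.55 on replicate 3, and *POT1* at 12.30, 12.35 and 11.02. *ANT1* alone was higher there, at 11.01 against 10.10 and 9.94. The oxidation mean of the array was -0.69, against 0.07 and -0.01 on the others. The same array stood apart in mating-type markers, with an a-cell mean of 9.22 against 6.64 and 6.52 and an alpha-cell mean of 8.86 against 12.82 and 12.89. Their part in the oxidation values was not tested. Without it, between KV68 and KV63 the oxidation median was 0.10, 0 of 37 genes passed both thresholds, and by the adjusted p alone *DCI1* was higher by 0.46 (adjusted p = 0.00705), *ANT1* lower, at -0.45 (adjusted p = 0.0124) and 8 biogenesis genes higher and 0 lower, where 11.5% of all probe sets were higher and 9.46% lower in that fit.

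Colonies of the strains that share a label were also compared. KV63 and KV473, both labelled *flo11*, differed by -0.27 to 0.10, and 0 of 37 genes passed the adjusted p, as did 0% of all probe sets. Arrays of the strains did not overlap for 2 of the 37 genes, both lower in KV63, against 7.49% of all probe sets in either direction. KV68 and KV2668, both labelled wild type, differed more: by the adjusted p alone 3 oxidation genes were higher in KV68 and 1 lower, and 10 biogenesis genes higher and 4 lower, against 21.2% of all probe sets higher and 21.4% lower. By both thresholds 2 genes were lower in KV68, both on chromosome XII, *ECI1* at -1.16 (SE 0.24, adjusted p = 0.00132) and *PEX30* at -1.11 (SE 0.06, adjusted p = 1.45e-08), where 3.71% of all were. The share of higher among all called probe sets in this comparison was 29%, and 46.1% with each chromosome centred.

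Without KV68 solid replicate 3, 8 oxidation genes were higher in KV68 than in KV2668 and 1 lower by the adjusted p alone, where 28.3% and 28% of all probe sets were in that fit, with a median of 0.51. *POX1* then passed both thresholds at 1.03 (adjusted p = 4.46e-07), *FAA2* stood at 0.95, *DCI1* and *PEX11* at 0.90, and *PIP2* at 0.59. *ECI1* no longer passed the threshold on size, at -0.76. The lowest group mean stayed with KV2668 colonies for 9 of 10 oxidation genes whether or not that array was used.

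The difference between the strain pairs, KV2668 less KV473 less the difference of KV68 and KV63, was tested as well. By both thresholds *ECI1* at 1.25 (SE 0.34, adjusted p = 0.0149) and *PEX30* at 1.12 (SE 0.09, adjusted p = 1.77e-06) passed, both higher, where 3.58% of all probe sets were. The share of higher among all called probe sets was 77.6%, and 61.1% with each chromosome centred. By the adjusted p alone 2 oxidation genes were lower, *DCI1* at -0.72 and *FAA2* at -0.67, together with *PIP2* at -0.70 and 5 biogenesis genes, where 11.1% of all were. The oxidation median was -0.33, and ran from -0.50 to -0.17 as single arrays were left out. Without KV68 solid replicate 3, 7 of 10 oxidation genes were lower by that rule, where 21.2% of all probe sets were in that fit, led by *POX1* at -0.93 and *DCI1* at -0.91, with a median of -0.50, and *ECI1*, at 0.85, was called by the adjusted p alone.

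Other genes of peroxisomes and fatty acids are given for context, counted by both thresholds, which called 11.2% of all probe sets higher and 6.67% lower in KV473 colonies and 10.7% and 6.95% in KV2668 colonies. Of 18 other peroxisomal proteins, 4 rose in KV473 colonies relative to liquid: *GPD1* by 2.06 and *PNC1* by 1.95, enzymes of glycerol and NAD metabolism, *STR3*, an enzyme of methionine synthesis, by 1.89, and the isocitrate dehydrogenase *IDP3*, which supplies the NADPH that *SPS19* uses, by 1.45. In KV2668 3 rose, *STR3* by 3.12, *GPD1* by 1.15 and *PNC1* by 1.05, and 3 fell, the lipase *LPX1* by 1.45, the thioesterase *TES1* by 1.07 and the malate synthase *MLS1* by 1.04. The list medians were -0.04 and -0.14. Of 5 genes of the carnitine shuttle, which carries acetyl units out of the peroxisome, 0 passed in either strain, with medians of -0.57 and 0.03. Of 5 genes of peroxisome division, 1 fell in KV473, *MDV1* by 1.05, and 0 changed in KV2668.

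Of 10 genes of fatty acid synthesis 2 fell and 1 rose in KV473, and 3 fell in KV2668, with medians of -0.56 and -0.66. The elongation genes *ELO2* and *IFA38* fell in both strains, by 1.72 and 1.06 in KV473 and by 1.38 and 1.43 in KV2668, and the desaturase *OLE1* rose by 1.15 in KV473. Of 5 other acyl-CoA synthetases and uptake genes, *FAA3* fell by 1.38 and 2.00 in the 2 strains and *FAA4* rose by 1.12 in KV473.

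Of 10 genes of carbon metabolism that glucose represses, 1 fell in KV473 and 3 in KV2668, *SFC1* by 1.24 and 1.38, and *MLS1* by 1.04 and *FBP1* by 1.03 in KV2668, with list medians of -0.49 and -0.68. The array mean of the list was 13.49 to 13.63 over the liquid arrays, 13.02 to 13.23 in KV473 colonies and 12.76 to 12.95 in KV2668 colonies. It was 13.11 to 13.32 in KV63 colonies and 13.08, 12.88 and 12.64 on KV68 solid replicates 1, 2 and 3. The liquid arrays together, KV473 colonies and KV2668 colonies came in the same order as for the oxidation mean, but KV68 colonies did not keep to it. KV68 solid replicate 2 lay within the range of the KV2668 colonies, while its oxidation mean of -0.01 lay above theirs. Of 6 regulators of oleate and glucose derepression 0 passed in the medium comparison of either strain, and *MIG1*, the glucose repressor, was 1.13 higher in colonies of KV2668 than in those of KV473. Of 10 markers of meiosis and sporulation 3 rose and 1 fell in KV473 colonies and 2 rose and 1 fell in KV2668 colonies. The array mean of that list was 6.25 to 6.45 on the liquid arrays and 6.75 to 7.0 on the solid arrays, with 1 of 10 markers below background on all liquid arrays. The part of either list in the differences of the oxidation genes was not tested.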

How the data were processed

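The authors deposited log2 values per probe set, computed by RMA, the tool named in the submitters' processing notes; its version and the genome build are not given in the sources used here. The deposited log2 values were used as they stood for 7686 probe sets, 6145 with 1 gene symbol from the platform annotation, of which 5469 are of *S. cerevisiae* and 676 of *S. pombe*. A current RefSeq gene table served for chromosomes and to update 12 symbols. No sequences or coordinates were used. Probe sets that on at least 3 arrays exceeded 95% of those for *S. pombe* genes were tested, 5424 in all, including all 37 genes. Precision is limited by how many arrays a group has and by signal above background, and 0 columns were left unassigned.

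Linear models were fitted with limma 3.58.1 (lmFit, then eBayes; R 4.3.3), with Benjamini-Hochberg adjustment over 5424 probe sets. The 12 arrays of KV473 and KV2668 were fitted in 4 groups for the medium and strain comparisons of that pair, and all 18 arrays in 6 groups for those with KV63 or KV68. Both thresholds are those of the study's methods. The genes named are those passing both thresholds or among the 6 largest absolute differences, with pathway members described by role. Comparisons that share arrays are not independent. The fit was run on simulated data only for KV2668 against KV473 on solid medium, with simulated differences over the threshold on size. Smaller differences were not covered by it. The members and the gene lists were chosen with earlier results of these data known.

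Alternatives were arrays centred on their medians, each chromosome centred, a stricter background filter, no filter, values under background set to it, eBayes with trend and robust settings, another set of arrays in the fit, a replicate block and leaving out each array; the adjusted p alone and the removal of KV68 solid replicate 3 from its comparisons were added after seeing the data. Deviations of same-numbered arrays correlated at -0.30 to 0.52, over 0.1 in 18 of 45 pairs. Among the groups compared directly, all 3 numbers were over 0.1 only for KV63 and KV68 colonies, at 0.40, 0.27 and 0.52. These were therefore also fitted alone with the number as a block, an alternative added after seeing the data. KV63 and KV2668 colonies, which both enter the difference of strain pairs, were over 0.1 as well, at 0.15, 0.24 and 0.19. No label says what the numbers stand for.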

Additional observations from a re-analysis of the deposited data

Results flagged for a closer look

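Results are given here where 2 effects differed by limma's adjusted p for the difference itself and, in addition, either the difference was over 1 or the separate effects passed the adjusted p in opposite directions. For the medium difference, colonies less liquid, the KV2668 value less the KV473 value was -0.92 for *PXA1*, -0.79 for *PEX28*, -0.71 for *PEX25*, -0.55 for *PEX8* and -0.51 for *PEX29*, each passing limma's adjusted p. *PXA1* and *PEX29*, a reticulon-related regulator of peroxisome size, passed in opposite directions in the strains: *PEX29* stood at 9.09, 9.29 and 9.21 in liquid and 9.48, 9.58 and 9.34 in colonies of KV473, and at 9.43, 9.47 and 9.53 and 9.20, 9.26 and 9.25 in those of KV2668. *PEX8*, *PEX25* and *PEX28* passed in opposite directions between media for the strain difference, KV2668 less KV473, at -0.16, -0.47 and -0.28 on solid medium and 0.39, 0.24 and 0.50 in liquid. For the strain difference on solid medium, the KV2668 and KV473 value less that of KV68 and KV63 was 1.25 for *ECI1*, 1.12 for *PEX30*, -0.65 for *PEX28* and -0.57 for *PEX2*. *ECI1* and *PEX30* lie on chromosome XII. Without KV68 solid replicate 3, *PEX30* stood at 1.04, *ECI1* at 0.85, *PEX28* at -0.54 and *PEX2* at -0.41, all passing the adjusted p.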

How the results depend on the processing

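For the 22 single-gene results called by both thresholds, 299 values under an alternative kept their direction and the call. A further 17 lost the call and 0 changed sign. Genes that were not called are outside this count. The losses concerned *PEX30*, *ECI1* and *PEX21* with each chromosome centred, *PEX11*, *PEX21* and *ECI1* on solid medium without single arrays of KV473 or KV2668, *ECI1* in the medium comparison of KV473 without KV473 solid replicate 2, and *ECI1* in the comparisons with KV68 without KV68 solid replicate 3.

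With arrays centred on their medians the biogenesis median became 0.18 for medium in KV473, -0.16 between KV2668 and KV473 on solid medium and -0.17 for the difference of medium effects. With each chromosome centred these were 0.16, -0.086 and -0.16, and -0.28 for the difference of strain pairs. That centring left 0 genes higher and 1 lower between KV2668 and KV473 on solid medium, 0 higher in liquid, 0 higher for the difference of strain pairs and 0 lower between KV68 and KV2668. Counts of the 37 genes by the adjusted p alone follow as higher and lower, with the shares of all probe sets in brackets. For medium they were 13 and 11 in KV473 (32% and 49.2%) and 12 and 20 in KV2668 (34.4% and 45.9%). Between those strains they were 6 and 22 on solid medium (29.9% and 30.2%) and 11 and 8 in liquid (28.6% and 24.3%). The difference of medium effects gave 3 and 17 (24.8% and 27%), and KV68 against KV2668 gave 14 and 5 (21.2% and 21.4%). Between KV68 and KV63 4 were higher (5.62%). The difference of strain pairs gave 3 higher and 8 lower (14.5% and 11.1%).

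Leaving out each array of the groups compared gave 1 to 2 genes lower for medium in KV473, 2 to 4 higher in KV2668, 1 to 2 higher and 0 to 2 lower between the strains on solid medium, 0 to 1 lower for the difference of medium effects, 0 to 1 higher and 1 to 2 lower between KV68 and KV2668, and 1 to 2 higher for the difference of strain pairs. Biogenesis medians ran from 0.092 to 0.17 and 0.067 to 0.15 for medium in KV473 and KV2668, -0.17 to -0.13 and 0.058 to 0.11 between the strains on solid medium and in liquid, -0.17 to -0.086 for the difference of medium effects, 0.095 to 0.13 between KV68 and KV63 and -0.32 to -0.22 for the difference of strain pairs. Oxidation medians ran from -0.34 to 0.10 between KV68 and KV63 and from 0.16 to 0.51 between KV68 and KV2668. The high end of both was reached without KV68 solid replicate 3. The cause of these shifts was not tested.

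A replicate block left every count of called genes as it was. For medium these were 4 higher and 2 lower in KV473 and 2 and 5 in KV2668, with oxidation medians of -0.51 and -0.95. Between KV68 and KV63 they were 0 and 0, with 5 biogenesis genes higher by the adjusted p alone in place of 4. Same-numbered arrays of KV68 and KV63 colonies correlated as given above, but no label says that they are paired. Fitted alone, KV63 and KV68 gave 0 genes by the adjusted p with and without the block.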
